A study of Mus musculus with 4 samples.

Results

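Interferon gamma (*Ifng*), the chains of its receptor (*Ifngr1* and *Ifngr2*), its target *Irf1* and 6 further cytokine genes of T cells (*Il2*, *Il4*, *Il10*, *Il17a*, *Csf2* and *Areg*) were followed through 4 single-cell RNA libraries of mouse liver. They are 10 of the 31053 genes in the count tables and were taken by symbol, with earlier results of these data known. The libraries hold liver mononuclear cells of C57BL/6 mice aged 8 to 10 weeks, with 1 library for each condition, and how many mice entered each library is not given in the sources used here. The Naïve group did not receive ConA, and whether it received a vehicle is not given in the sources used here. The other groups received concanavalin A (ConA), a plant lectin that activates T cells and brings on hepatitis, and their livers were taken 24 hours later. ConA+Veh mice received vehicle after ConA, ConA+TCDD mice received the dioxin TCDD 1 hour after ConA, and ConA+FICZ mice received FICZ, a tryptophan derivative. TCDD and FICZ are both ligands of the aryl hydrocarbon receptor (AhR), a transcription factor that a ligand switches on, and the dose and timing of FICZ are not given in the sources used here.

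Interferon gamma is a cytokine of NK cells and of T cells. It binds a receptor of paired chains, IFNGR1, which holds the ligand, and IFNGR2, which is needed to pass on the signal, and the kinases JAK1 and JAK2 carry that signal, which switches on IRF1 and other genes. In ConA hepatitis, natural killer T cells, conventional T cells and NK cells are known sources of this cytokine, and natural killer T cells also release interleukin-4. Interleukin-2 drives T cell growth, interleukin-10 restrains inflammation, interleukin-17A recruits neutrophils, GM-CSF (*Csf2*) acts on myeloid cells, and amphiregulin (*Areg*) is a growth factor that regulatory T cells and type 2 innate cells use in tissue repair.

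The stretches of 250 bases before the start sites of *Ifng*, *Irf1*, *Ifngr1* and *Il4* are printed because these are the ligand, its target, the ligand-binding chain and the cytokine with the most matches to the motifs searched. They are RefSeq sequences of GRCm38.p6, each given from 5′ to 3′ on the strand of its gene. Capitals mark matches, on either strand, to the core of the AhR site and to the core of the NFAT site, whose letters are spelled out after the sequences.
Ifng, chr10:118440796-118441045, plus strand: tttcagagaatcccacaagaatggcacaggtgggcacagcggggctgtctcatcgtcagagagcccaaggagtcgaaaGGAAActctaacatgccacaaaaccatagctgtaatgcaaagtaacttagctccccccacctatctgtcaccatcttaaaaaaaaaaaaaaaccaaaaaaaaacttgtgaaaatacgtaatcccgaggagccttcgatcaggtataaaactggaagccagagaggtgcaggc
Irf1, chr11:53769764-53770013, plus strand: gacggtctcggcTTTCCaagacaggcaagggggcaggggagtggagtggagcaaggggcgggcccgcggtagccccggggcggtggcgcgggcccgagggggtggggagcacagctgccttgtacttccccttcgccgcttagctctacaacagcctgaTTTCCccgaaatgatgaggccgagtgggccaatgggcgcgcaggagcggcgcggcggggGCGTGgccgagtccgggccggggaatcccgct
Ifngr1, chr10:19591699-19591948, plus strand: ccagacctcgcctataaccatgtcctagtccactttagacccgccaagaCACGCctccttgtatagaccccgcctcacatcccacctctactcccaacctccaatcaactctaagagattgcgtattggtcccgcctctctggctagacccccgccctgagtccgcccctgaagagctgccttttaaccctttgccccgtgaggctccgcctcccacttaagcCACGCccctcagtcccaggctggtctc
Il4, chr11:53618666-53618915, minus strand: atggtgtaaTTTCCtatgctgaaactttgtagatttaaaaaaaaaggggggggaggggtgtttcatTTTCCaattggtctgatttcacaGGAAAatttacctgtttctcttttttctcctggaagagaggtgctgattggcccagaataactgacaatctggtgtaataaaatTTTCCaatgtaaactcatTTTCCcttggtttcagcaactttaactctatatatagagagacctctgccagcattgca

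The letters searched were GCGTG for the AhR and GGAAA for NFAT, and on the other strand the NFAT core reads TTTCC and the AhR core CACGC. The *Ifng* stretch held GGAAA from −172 to −168, counted from the start site. In the *Irf1* stretch, TTTCC stood from −238 to −234 and from −91 to −87, and GCGTG stood from −32 to −28. *Ifngr1* held CACGC from −201 to −197 and again from −27 to −23, and *Il4* held the NFAT core 5 times. Such matches are common and describe letters only. Among 32851 stretches of 250 bases before mouse start sites, 28.2% held GCGTG, 55.6% held GGAAA and 6.75% held the AP-1 element TGANTCA. Among the 9 members with such a stretch, the AP-1 element was found in *Il17a*. In the GENCODE vM21 annotation of GRCm38, *Ifng* spans chr10:118441046-118445892 and overlaps Gm49751, *Irf1* spans chr11:53770014-53778374 and overlaps Gm17334, *Il2* spans chr3:37120523-37125959 and overlaps *Adad1*, and *Csf2* spans chr11:54247271-54249667 and overlaps Gm12223. Gm49751 lies on the same strand as *Ifng*, while Gm17334, *Adad1* and Gm12223 lie on the strand opposite to their member. The strand setting of the authors' counting is not given in the sources used here, so UMIs of these 4 members may be shared with those neighbours. *Ifngr1* (chr10:19591949-19610229), *Ifngr2* (chr16:91547072-91565623), *Il4* (chr11:53602982-53618669), *Il10* (chr1:131019845-131024974), *Il17a* (chr1:20730905-20734496) and *Areg* (chr5:91139599-91148432) overlap no other annotated gene.

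A UMI is a tag that stands for 1 captured RNA molecule. In values that follow the order Naïve, ConA+Veh, then ConA+TCDD and last ConA+FICZ, the libraries held 2086, 2779, 1880 and 2555 cells, with 5952445, 19252211, 12077209 and 16017797 UMIs and medians of 2161, 3984, 3761.5 and 3147 UMIs per cell. A cell was placed in a class when it held UMIs of at least 2 markers of that class. T or NK cells, gated by CD3 and T cell receptor genes or by NK receptor genes, numbered 601, 955, 774 and 676, and of these 123, 223, 162 and 154 were NK cells. Their median depths were 2525, 5022, 5375 and 5672.5 UMIs. Markers of other cells differed between libraries within this class. The summed level of the erythroid list was 978, 184, 249 and 17.4 CPM (counts per 1000000 UMIs of the class), with UMIs of all 5 genes in each library, and the summed level of the B cell list was between 9.03 and 14.5 CPM. The hepatocyte list stood at 36.6, 10.9, 11.3 and 71 CPM and the list of type 2 innate lymphoid cells at 77.1, 23.7, 20.2 and 15.6 CPM. That last list includes *Gata3*, a transcription factor of T cells as well, so its sum does not measure type 2 innate lymphoid cells alone. The part of these differences in the values that follow was not tested. Levels are CPM with exact Poisson 95% intervals, which cover counting error only, and with 1 library per condition no difference between conditions was tested and no spread between mice is known. In such sums, fewer cells that make a gene and less of its RNA per cell cannot be told apart.

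T or NK cells were the class with the most *Ifng* UMIs in every library. Naïve held 365 of its UMIs, ConA+Veh 540, ConA+TCDD 800 and ConA+FICZ 307, in 140, 213, 192 and 116 cells. T or NK cells held 91.8%, 78.1%, 54% and 61.9% of these UMIs. Most of the remainder lay in cells that passed no gate, with 23, 66, 298 and 81 UMIs, or in cells that passed more than 1, which held 3, 46, 66 and 35, and in ConA+TCDD 1 such cell held 63. Cells that passed no gate numbered 207, 427, 506 and 478, or 9.92%, 15.4%, 26.9% and 18.7% of their libraries. Mononuclear phagocytes held 1 UMI, in ConA+Veh, and neutrophils held none among their 23, 91, 39 and 241 cells. The chart of the classes that hold each cytokine shows how much of the ConA+TCDD count sat outside the gates.

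**Figure D1:**
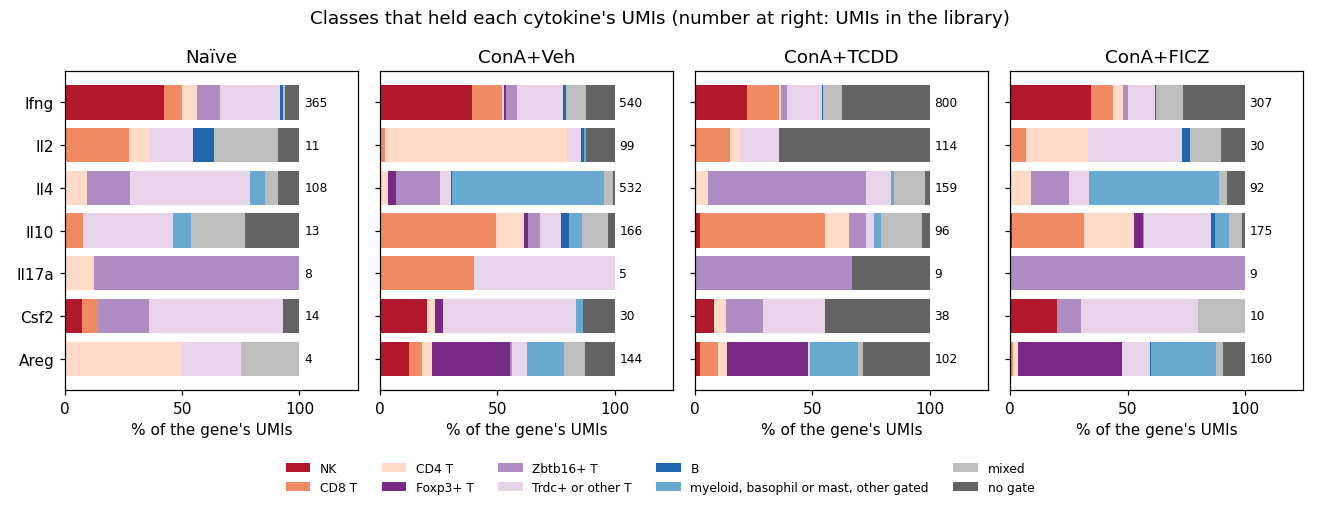
Share of each cytokine gene's UMIs (horizontal axis, percent) held by each gated class, with 1 panel per library and the gene's UMIs in the library at the right end of each bar. NK cells held 42.2% of *Ifng* UMIs in Naïve and 22% in ConA+TCDD, where 37.2% lay in cells without a gate, while *Il17a* rests on 8, 5, 9 and 9 UMIs.

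In T or NK cells, *Ifng* stood at 163 CPM in Naïve (95% interval 146 to 182), 50 in ConA+Veh (45.4 to 55), 66.1 in ConA+TCDD (60 to 72.7) and 28.2 in ConA+FICZ (24.3 to 32.5), from 335, 422, 432 and 190 UMIs. Naïve was highest and ConA+FICZ lowest, and none of the 4 intervals overlapped another. These intervals treat each UMI as independent, although 1 cell held 82 of the 432 ConA+TCDD UMIs, so they are too narrow for UMIs gathered in few cells. The log2 ratio of ConA+Veh over Naïve was −1.71 (−1.92 to −1.50), that of ConA+TCDD over ConA+Veh was 0.40 (0.21 to 0.60), and that of ConA+FICZ over ConA+Veh was −0.83 (−1.08 to −0.58). ConA+Veh is the same library in the last 2 ratios, and TCDD and FICZ are set side by side only, since their doses cannot be matched. After thinning every cell to 1000 UMIs, ConA+Veh over Naïve was −1.07 and ConA+FICZ over ConA+Veh was −0.18. With the cell that held the most *Ifng* UMIs left out of each library, ConA+TCDD over ConA+Veh came to 0.21, from 350 and 390 UMIs. With cells of a single T or NK marker added to the class, the levels were 162, 54.7, 90.6 and 38.4 CPM, because these cells brought 18, 60, 207 and 77 further *Ifng* UMIs.

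The share of T or NK cells with an *Ifng* UMI was compared at an equal depth of 1000 UMIs per cell, drawn at random, which left out 40, 31, 25 and 21 shallower cells. Thinned shares were 11.4% (exact 95% interval 8.9 to 14.3) in Naïve, 6.6% (5.09 to 8.4) in ConA+Veh, 6.68% (4.99 to 8.71) in ConA+TCDD and 5.5% (3.88 to 7.53) in ConA+FICZ. Unthinned they were 19.6%, 18.3%, 17.6% and 13%. The 3 libraries with ConA had overlapping intervals, while that of Naïve lay above them. B cells, which do not make this cytokine in number, give the level of stray RNA. Their thinned shares were 0.095%, 0.397%, 0.533% and 0%, their unthinned shares 0.277%, 0.61%, 0.728% and 0.128%, and their median depths 2123.5, 4164, 3420 and 3534 UMIs.

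NK cells had the highest *Ifng* level of the gated classes in each library, at 621 CPM in Naïve, 267 in ConA+Veh, 300 in ConA+TCDD and 208 in ConA+FICZ. Their thinned share of cells with an *Ifng* UMI was 26.3%, 21.1%, 16.3% and 15.5%, and their unthinned share 35%, 41.3%, 38.9% and 29.2%. NK cells made up 20.5%, 23.4%, 20.9% and 22.8% of T or NK cells. Their median depths were 1767, 2663, 2578.5 and 2630.5 UMIs. The NK gate allows 1 T cell marker, so a shallow T cell with NK receptor genes can count as an NK cell. The part of such cells in the NK values here and below was not tested. Within NK cells the log2 ratio of ConA+Veh over Naïve was −1.22 (−1.53 to −0.91), and over ConA+Veh it was 0.17 (−0.13 to 0.47) with TCDD and −0.36 (−0.71 to −0.02) with FICZ. Ratios are given in this order throughout. The interval for TCDD spans 0 and leaves room for differences of either sign.

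T cells, counted without NK cells, stood lower, at 100, 27.6, 43 and 13.5 CPM, with ratios of −1.86, 0.64 and −1.03 in the same order of comparisons. Without the richest cell of each library the ratio with TCDD was 0.32, and after thinning it was 1.06 with TCDD and 0.01 with FICZ. CD8 T cells, which can kill infected cells, held 29, 69, 110 and 28 *Ifng* UMIs, or 42, 16.9, 38.4 and 8.4 CPM. In ConA+TCDD a single cell carried 82 of those 110 UMIs. CD4 T cells without *Foxp3* held 22, 6, 8 and 13 UMIs, and *Foxp3*+ T cells held 0, 3, 0 and 0. T cells with a UMI of *Zbtb16*, which encodes the factor that marks innate-like T cells such as NKT cells, stood at 196, 73.6, 58.1 and 38.7 CPM. Naïve was highest in CD4, CD8 and *Zbtb16*+ T cells, although its interval overlapped that of ConA+TCDD in CD8 T cells, and also in the small *Trdc*+ class, which rests on 11, 7, 14 and 11 UMIs in 14, 25, 15 and 25 cells. The plot of *Ifng* by class shows NK cells above the T cell classes.

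**Figure D2:**
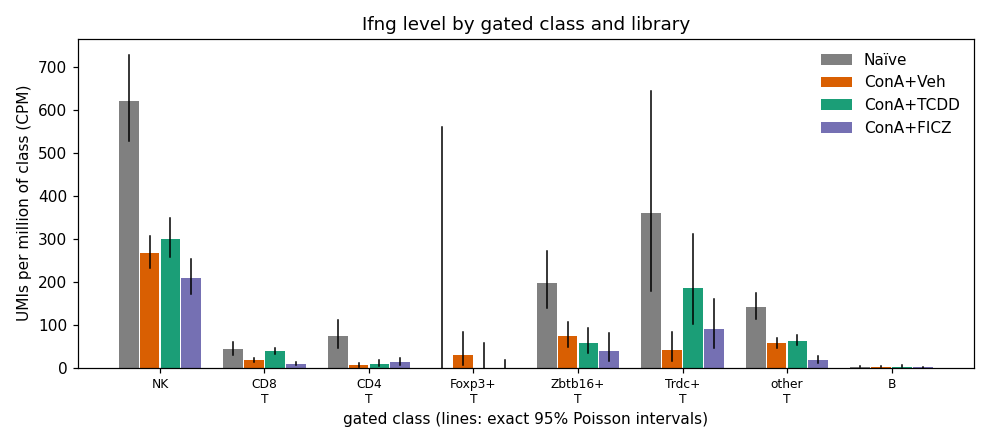
*Ifng* level (vertical axis, CPM) in each gated class (horizontal axis), with 1 bar per library and lines for exact 95% Poisson intervals. NK cells stood at 621, 267, 300 and 208 CPM in the 4 libraries, Naïve first and ConA+FICZ last, while B cells stayed at or below 1.88 CPM.

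The *Ifng* UMIs were unevenly spread over cells. Of the T or NK cells with any, 63 of 118 in Naïve, 101 of 175 in ConA+Veh, 70 of 136 in ConA+TCDD and 51 of 88 in ConA+FICZ held exactly 1. The richest cell held 47, 32, 82 and 12 UMIs, which is 14%, 7.58%, 19% and 6.32% of the class total. The first 50% of UMIs lay in 17, 28, 14 and 18 cells. ConA+Veh spread its UMIs over the most cells. Without the richest cell of each library the first 50% lay in 21, 32, 22 and 19 cells, so that the place of ConA+TCDD in this order rested on 1 cell.

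**Figure D3:**
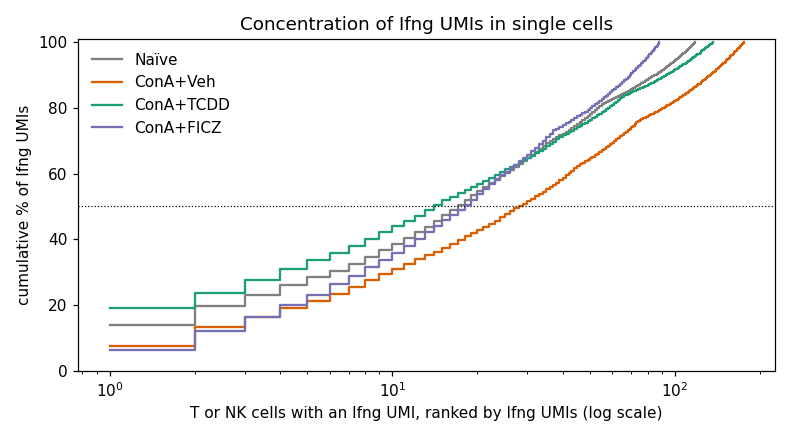
Cumulative percent of *Ifng* UMIs in T or NK cells (vertical axis) against cells ranked by their *Ifng* UMIs (horizontal axis, log scale), with 1 line per library and a dotted line at 50%. The ConA+TCDD line reaches 50% with 14 cells and the ConA+Veh line with 28.

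Cells with and without *Ifng* differed in the shares that held *Gzmb*, *Xcl1* or *Ccl4*. *Gzmb*, *Xcl1* and *Ccl4* were chosen from a longer list of genes after their values were seen, as were *Cd69*, *Mki67* and *Rbm3*. For *Cd69*, *Mki67* and *Rbm3* the intervals of cells with and without *Ifng* overlapped in each library. At 1000 UMIs per cell, *Gzmb*, which encodes granzyme B, was found in 35.1% of T or NK cells with an *Ifng* UMI and 12% of those without in Naïve, 75% and 35.8% in ConA+Veh, 70.2% and 39.8% with TCDD, and 74.4% and 37.6% with FICZ. The chemokine gene *Xcl1* was found in 40.5% and 9.11% in Naïve, 29.1% and 12.5% in ConA+Veh, 29% and 7.61% with TCDD, and 22.1% and 6.5% with FICZ. *Ccl4*, another chemokine gene, was found in between 24.3% and 43% of cells with *Ifng* and between 8.9% and 13.2% of cells without. Among the members, *Ifngr1* was found in 33.3% of cells with *Ifng* against 26.7% without in Naïve, 50% against 33.2% in ConA+Veh, 32.8% against 26.4% with TCDD and 34.9% against 25.3% with FICZ. The intervals were apart in ConA+Veh and overlapped in the other libraries. For *Irf1* the shares were 18.9% against 16%, 8.72% against 9.84%, 10.7% against 11.2% and 19.8% against 12.5%, with overlapping intervals in each library. None of these comparisons was split into NK and T cells. NK cells were 43 of 118, 92 of 175, 63 of 136 and 45 of 88 T or NK cells with *Ifng*. Of all T or NK cells they were 20.5%, 23.4%, 20.9% and 22.8%. The part of NK cells in these differences was not tested.

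The cells without a gate that held *Ifng* were shallower than the gated ones, whose median depths were 2510, 4427, 4191 and 4147.5 UMIs. The 17, 23, 50 and 18 such cells had median depths of 1097, 1207, 1881 and 1584.5 UMIs, and 14, 20, 32 and 15 of them held at least 1 T or NK marker. *Nkg7*, a gene of cytotoxic granules, was present in 82.4%, 73.9%, 80% and 94.4% of them, against 32.4%, 30%, 34.2% and 25.1% of all cells without a gate and 91.5%, 96.6%, 92.6% and 96.6% of T or NK cells with *Ifng*. *Cd52*, whose product is a surface glycoprotein of lymphocytes, was missing from 8.32%, 5.03%, 22.7% and 7.99% of T or NK cells, so that ConA+TCDD stood apart. It was present in 100%, 56.5%, 54% and 72.2% of the cells with *Ifng* and no gate, against 96.6%, 97.7%, 82.4% and 95.5% of T or NK cells with *Ifng*. Both genes were chosen after their values were seen. Among T or NK cells with a *Cd52* UMI, *Ifng* stood at 170, 49.4, 63.6 and 27.6 CPM and ConA+TCDD over ConA+Veh was 0.36, close to the value in all T or NK cells.

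Across 23 sums of a library and a class with at least 20 cells, the genes whose level on the log2(CPM + 10) scale was most like that of *Ifng* were *Fasl* and *Klrc1* (Pearson r = 0.99 for both), *Sytl2*, *Il18r1* and Gm14029 (r = 0.98). *Fasl* encodes a ligand that triggers cell death and *Klrc1* encodes the NK receptor NKG2A. The 23 points come from 4 libraries and several share cells' depth and condition, so r is a description. For *Irf1* the likest genes were *Parp10* (r = 0.87), *Tmem120a* (0.86), *Ccdc12* (0.85), *Flot2* (0.84) and *Lasp1* (0.84).

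*Ifngr1*, the ligand-binding chain, was present in T, NK and B cells, mononuclear phagocytes and neutrophils of every library. Its level in T or NK cells was 326 CPM in Naïve (302 to 352), 259 in ConA+Veh (248 to 270), 219 in ConA+TCDD (208 to 231) and 186 in ConA+FICZ (175 to 196). The order ran from Naïve down to ConA+FICZ with no overlap of intervals. The log2 ratio of ConA+Veh over Naïve was −0.33 (−0.46 to −0.21), and over ConA+Veh it was −0.24 (−0.34 to −0.14) with TCDD and −0.48 (−0.58 to −0.38) with FICZ. The first of these depended on how cells were weighted. Thinned to 1000 UMIs per cell, it was 0.40, and 28% of Naïve cells against 36.4% of ConA+Veh cells then held an *Ifngr1* UMI (27.5% in ConA+TCDD and 26.6% in ConA+FICZ). Unthinned shares were 50.9%, 75.8%, 65.5% and 69.5%. Thinned, 5.51%, 7.15%, 6.67% and 5.25% of B cells held one. The ratios of both ligand libraries over ConA+Veh stayed below 0 under thinning.

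NK cells had a higher *Ifngr1* level than CD8 or CD4 T cells in all 4 libraries, at 763, 828, 763 and 802 CPM, and differed little between conditions. Their ratios were 0.12 (−0.12 to 0.36), −0.12 (−0.29 to 0.06) and −0.05 (−0.23 to 0.13), so differences beyond these bounds are outside counting error. CD8 T cells stood at 236, 186, 147 and 106 CPM and CD4 T cells at 170, 139, 91.2 and 82.3 CPM, with Naïve highest and ConA+FICZ lowest in both. ConA+Veh over Naïve was −0.34 (−0.59 to −0.09) in CD8 T cells. In CD4 T cells it was −0.29 (−0.75 to 0.19), and there ConA+TCDD and ConA+FICZ rested on 86 and 81 UMIs. Thinned ratios of these classes are not given here. *Foxp3*+ T cells, the regulatory class, stood at 514, 759 and 422 CPM in ConA+Veh, ConA+TCDD and ConA+FICZ from only 12, 16 and 23 cells, and Naïve held 3 such cells with 3 UMIs.

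Outside the lymphocytes of the T and NK gates, *Ifngr1* in mononuclear phagocytes, the monocyte, macrophage and dendritic class that responds to interferon gamma, was 338 CPM in Naïve and 120, 119 and 122 CPM in ConA+Veh, ConA+TCDD and ConA+FICZ. Naïve alone was high. ConA+Veh over Naïve was −1.49 (−1.83 to −1.15), and the ratios to ConA+Veh were −0.01 (−0.46 to 0.42) with TCDD and 0.03 (−0.29 to 0.35) with FICZ. These classes held 74, 198, 38 and 177 cells. The summed level of the phagocyte marker list in them was 2879, 1879, 935 and 2411 CPM. Its macrophage markers *Vsig4* and *Clec4f* had no UMI in Naïve or ConA+FICZ, while both were found in ConA+Veh and only *Vsig4* in ConA+TCDD. The part of the make-up of this class in the phagocyte values here and below was not tested. B cells stood at 62.8, 68.7, 53.6 and 49.1 CPM, with ratios of 0.13 (−0.14 to 0.41), −0.36 (−0.68 to −0.05) and −0.49 (−0.74 to −0.23). Neutrophils held 9, 17, 3 and 59 UMIs, or 185, 61, 25.7 and 95.3 CPM, with ratios of −1.60 (−2.85 to −0.25), −1.25 (−3.66 to 0.54) and 0.64 (−0.15 to 1.52). The ratio with TCDD was 0.66 when mixed cells were given to the class with the most marker UMIs.

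*Ifngr2*, the signalling chain, gave fewer UMIs. T or NK cells held 52, 117, 71 and 64, or 25.4 CPM (18.9 to 33.3), 13.9 (11.5 to 16.6), 10.9 (8.49 to 13.7) and 9.5 (7.32 to 12.1). Naïve was highest. The ratios were −0.87 (−1.35 to −0.37), −0.35 (−0.80 to 0.09) and −0.55 (−1.01 to −0.09). NK cells were near empty of it, with 0, 2, 2 and 0 UMIs in 123, 223, 162 and 154 cells, and 0 UMIs allow up to 12.1 CPM in Naïve and 5.89 CPM in ConA+FICZ at 3 counts. *Zbtb16*+ T cells held 0, 0, 1 and 1. CD4 T cells stood at 56.5, 27.9, 15.9 and 20.3 CPM, CD8 T cells at 24.6, 10.8, 12.6 and 6 CPM.

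B cells and mononuclear phagocytes had *Ifngr2* in each library. B cells stood at 45, 35.8, 34.3 and 28.7 CPM, with ratios of −0.33 (−0.68 to 0.02), −0.06 and −0.32, and phagocytes at 91.3, 70.8, 40.4 and 81.3 CPM, with ratios of −0.37 (−0.94 to 0.24), −0.81 (−1.58 to −0.11) and 0.20 (−0.21 to 0.60). The ConA+TCDD phagocytes were only 38 cells. Neutrophils held 7, 12, 14 and 34 UMIs, or 144, 43.1, 120 and 54.9 CPM, with ratios over ConA+Veh of 1.48 (0.26 to 2.72) with TCDD and 0.35 (−0.63 to 1.44) with FICZ. NK, *Zbtb16*+ and *Trdc*+ T cells held *Ifng* and *Ifngr1* in each library. *Trdc*+ T cells held 1, 0, 0 and 2 *Ifngr2* UMIs in 14, 25, 15 and 25 cells. The 3 classes thus gave at most 2 *Ifngr2* UMIs per library each. The *Trdc*+ class held only 30625, 172777, 75578 and 122648 UMIs of all genes, so its few *Ifngr2* UMIs do not show a low level.

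**Figure D4:**
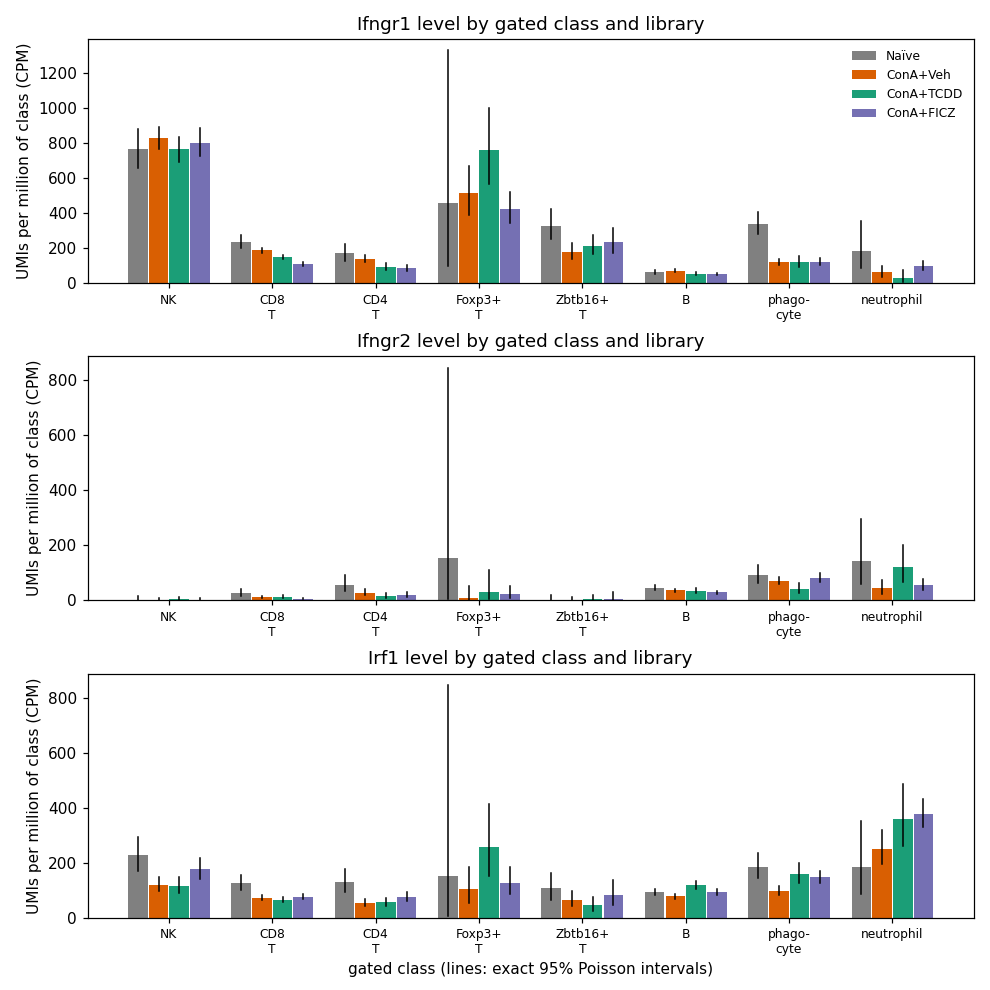
Levels of *Ifngr1*, *Ifngr2* and *Irf1* (vertical axes, CPM, 1 panel per gene) by gated class (horizontal axis), with 1 bar per library and lines for exact 95% Poisson intervals. *Ifngr1* in NK cells lay between 763 and 828 CPM in all libraries while *Ifngr2* in NK cells rested on 0, 2, 2 and 0 UMIs, and the Naïve *Foxp3*+ bars rest on 3 cells.

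*Irf1*, a transcription factor that interferon gamma induces, was present in all main classes. In T or NK cells it stood at 143 CPM in Naïve (127 to 160), 75.4 in ConA+Veh (69.6 to 81.5), 69 in ConA+TCDD (62.8 to 75.7) and 92.5 in ConA+FICZ (85.4 to 100), from 293, 636, 451 and 623 UMIs. Naïve was highest and ConA+FICZ next, and ConA+Veh and ConA+TCDD overlapped. The ratios were −0.92 (−1.12 to −0.72), −0.13 (−0.30 to 0.05) and 0.30 (0.13 to 0.46). Thinned shares of cells with an *Irf1* UMI were 16.6%, 9.63%, 11.1% and 13.4%, and unthinned shares 32.8%, 39.6%, 35.9% and 47.5%. NK cells followed the same order of high and low libraries, at 226, 119, 116 and 175 CPM, with ratios of −0.93 (−1.42 to −0.42), −0.04 (−0.51 to 0.43) and 0.56 (0.12 to 0.99).

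B cells and phagocytes had more *Irf1* with either ligand than with vehicle. B cells stood at 92.6, 76.5, 118 and 92.1 CPM, with ratios over ConA+Veh of 0.63 (0.39 to 0.86) for TCDD and 0.27 (0.06 to 0.48) for FICZ, and thinned shares of 8.55%, 10.6%, 17.1% and 13.7% (17%, 29.5%, 41% and 33% unthinned). ConA+Veh over Naïve was −0.28 (−0.52 to −0.04) in B cells, and its sign turned with the weighting of cells, to 0.28 after thinning. Phagocytes stood at 185, 97.6, 158 and 147 CPM, with ratios of −0.93 (−1.35 to −0.49), 0.69 (0.28 to 1.10) and 0.59 (0.27 to 0.91). ConA+Veh had the lowest CPM in both classes, while Naïve had the lowest share of B cells with an *Irf1* UMI. In neutrophils, which held 9, 70, 42 and 234 *Irf1* UMIs, the level was 185, 251, 360 and 378 CPM and the ratios were 0.44 (−0.56 to 1.63), 0.52 (−0.07 to 1.09) and 0.59, of which the last lay above counting error with a lower bound of 0.20.

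*Il2* was held by very few cells. Naïve had 11 UMIs in 10 cells, ConA+Veh 99 in 9 cells, ConA+TCDD 114 in 12 cells and ConA+FICZ 30 in 13 cells. A single CD4 T cell held 76 of the ConA+Veh UMIs, and in ConA+TCDD a cell without a gate held 49 and another 19. In T or NK cells, with 6, 85, 41 and 22 UMIs, the ratios were 1.78 (0.60 to 3.27), −0.68 (−1.26 to −0.13) and −1.63 (−2.37 to −0.93), and those over ConA+Veh changed sign, to 1.79 and 0.96, once the richest cell of each library was left out. ConA+Veh over Naïve then rested on under 20 UMIs and has no ratio. No NK, *Foxp3*+ or *Zbtb16*+ T cell held *Il2*.

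The class with the most *Il4* UMIs differed between libraries. It was T cells of no named subset in Naïve (50.9% of UMIs), basophils or mast cells in ConA+Veh (64.5%) and ConA+FICZ (55.4%), and *Zbtb16*+ T cells in ConA+TCDD (67.3%). T or NK cells held 85, 160, 133 and 31 UMIs in 52, 33, 30 and 16 cells, or 41.5, 19, 20.4 and 4.6 CPM, and all of them were T cells. ConA+Veh over Naïve was −1.13 (−1.52 to −0.73), and the ratios over ConA+Veh were 0.10 (−0.24 to 0.44) with TCDD and −2.04 (−2.65 to −1.48) with FICZ. *Zbtb16*+ T cells held 20, 100, 107 and 15 of these UMIs, in 12 of 39, 13 of 30, 12 of 29 and 8 of 24 cells. That class stood at 106, 272, 345 and 83 CPM, so that ConA+Veh and ConA+TCDD were high in it although T or NK cells as a whole were highest in Naïve. In Naïve, T cells of no named subset held 55 UMIs in 34 of 194 cells. A T cell needed a *Zbtb16* UMI for the *Zbtb16*+ class, so a shallow cell can miss it and count as having no named subset. The median depth of T cells was 2765, 6825, 6161.5 and 8096 UMIs. The part of depth in the differences between these classes was not tested.

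Basophils or mast cells, granulocytes that release interleukin-4, numbered 2, 8, 4 and 5 cells and held 7, 343, 2 and 51 *Il4* UMIs. In ConA+Veh, 1 of these cells held 272 UMIs, 51.1% of all *Il4* UMIs in that library. The summed level of the basophil or mast cell marker list in this class was 28980, 1974, 8325 and 6043 CPM. That of the hepatocyte list was 0, 1217, 0 and 0 CPM. The part of the make-up of this class in its *Il4* values was not tested. *Ifng* and *Il4* were found in the same T or NK cell in 19, 15, 11 and 6 cases. B cells, at 0, 4, 0 and 0 UMIs, and CD8 T cells, at 0, 2, 0 and 0, gave the background.

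*Il10* was nearly missing in Naïve. The 4 libraries held 13, 166, 96 and 175 UMIs, of which T or NK cells held 6, 128, 73 and 150, or 2.93 CPM (1.07 to 6.37), 15.2 (12.7 to 18), 11.2 (8.76 to 14) and 22.3 (18.8 to 26.1). The ratios were 2.37 (1.21 to 3.85), −0.44 (−0.88 to −0.02) and 0.55 (0.20 to 0.91). CD8 T cells held 1, 82, 51 and 54 UMIs in 1, 38, 26 and 20 cells, the most of any class in the libraries with ConA, and stood at 20.1, 17.8 and 16.2 CPM with ConA, with overlapping intervals. The larger ConA+FICZ sum came with 2 cells that held 32 and 28 UMIs, and after thinning to 1000 UMIs the ratio of ConA+FICZ over ConA+Veh was −0.59. *Foxp3*+ T cells held 0, 3, 0 and 7. *Ifng* shared a cell with *Il10* in 0, 14, 9 and 6 of the 2, 60, 40 and 41 T or NK cells with *Il10*.

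*Il17a* had too few UMIs for any ratio, with 8 UMIs in 2 cells in Naïve, 5 in 4 cells in ConA+Veh, 9 in 3 cells in ConA+TCDD and 9 in 1 cell in ConA+FICZ. In Naïve, ConA+TCDD and ConA+FICZ, 1 *Zbtb16*+ T cell held 7, 6 and 9 of them. In ConA+Veh no such cell did, and *Trdc*+ T cells, the gamma delta type, held 2. The related *Il17f* had 0, 13, 1 and 3 UMIs in T or NK cells, and *Il22* had none in the T or NK cells of any library. Counts of either gene in other cells are not given here.

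*Csf2* had 14, 30, 38 and 10 UMIs, of which T or NK cells held 13, 25, 21 and 8, or 6.34, 2.96, 3.21 and 1.19 CPM. The ratios were −1.10 (−2.12 to −0.01), 0.12 (−0.79 to 1.01) and −1.32 (−2.68 to −0.13), and counting error alone allows for much of them. In ConA+Veh 1 T cell held 12 of the 25. The richest ConA+TCDD cell, with 14 UMIs and no gate, was the cell that also held 49 *Il2* UMIs. *Ifng* and *Csf2* were found together in 4, 9, 8 and 2 of the 12, 11, 14 and 6 T or NK cells with *Csf2*.

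Among T and NK classes, *Foxp3*+ T cells held the most *Areg* in the 3 libraries with ConA. The libraries held 4, 144, 102 and 160 UMIs, and T or NK cells 3, 90, 50 and 95, or 1.46, 10.7, 7.65 and 14.1 CPM. The ratios were 2.87 (1.27 to 5.17), −0.48 (−1.01 to 0.04) and 0.40 (−0.03 to 0.84). *Foxp3*+ T cells held 0, 48, 35 and 71 of these UMIs in 0 of 3, 4 of 12, 5 of 16 and 6 of 23 cells, at 448 (331 to 595), 532 (370 to 739) and 322 (252 to 406) CPM in the libraries with ConA. The richest of them held 40, 17 and 35, so a few cells set each level. Basophils or mast cells held 0, 11, 20 and 1 UMIs and phagocytes 0, 10, 0 and 43, of which 1 cell held 24.

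**Figure D5:**
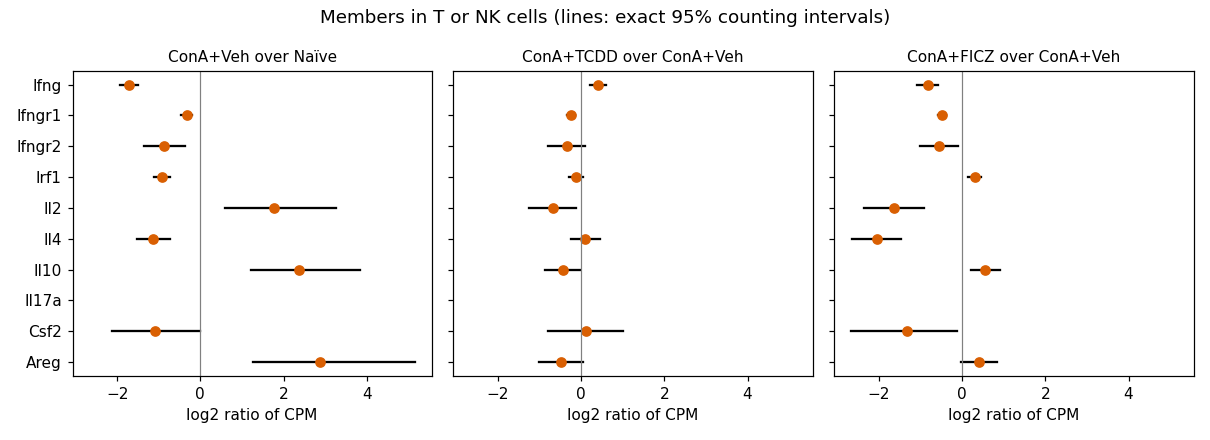
Log2 ratio of CPM in T or NK cells (horizontal axis) for each member (vertical axis), with 1 panel per comparison, points for the ratio and lines for exact 95% counting intervals. *Ifng* lies at −1.71, 0.40 and −0.83 and *Il4* at −1.13, 0.10 and −2.04, and *Il17a* has no point because of its few UMIs.

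Of the 8 members with at least 50 UMIs over both libraries in T or NK cells, *Il2*, *Il10* and *Areg* were at least 2-fold higher in ConA+Veh than in Naïve, where 7.81% of all 8757 genes so measured were, and *Ifng* and *Il4* were at least 2-fold lower, as were 12.3% of all genes. In T or NK cells no member passed 2-fold in either direction in ConA+TCDD over ConA+Veh, where 0.436% of 9165 genes were higher and 0.840% were lower. *Il2* and *Il4* were at least 2-fold lower in ConA+FICZ than in ConA+Veh, as were 1.27% of 9195 genes, and no member was higher, as 0.674% of genes were. The calls of *Il2* rest on the 1 ConA+Veh cell with 76 UMIs, and its ratio with FICZ was 0.96 without the richest cell of each library. The median log2 ratio of all genes in T or NK cells was −0.13, −0.05 and −0.01 in the 3 comparisons. Over all cells, gated or not, the *Ifng* ratio of ConA+TCDD over ConA+Veh was 1.24 (1.08 to 1.40). In the same comparison *Il4* was −1.07 (−1.33 to −0.81) and *Csf2* 1.01 (0.28 to 1.75). Single cells weigh on both values. In ConA+Veh 1 basophil or mast cell held 272 of the 532 *Il4* UMIs. In ConA+TCDD 1 cell without a gate held 14 of the 38 *Csf2* UMIs. Neither ratio is given here without its richest cells. In cells that passed no gate the *Ifng* ratio was 1.74 (1.35 to 2.14). Shares of all genes past 2-fold over all cells are not given here.

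Genes around the members were described from 5 lists, of which those with at least 50 UMIs are counted. In T or NK cells none of the 15 measured genes of interferon gamma signalling and response was past 2-fold in ConA+Veh over Naïve, with a median of −0.25. *Cxcl10*, a chemokine gene that interferon gamma induces, went from 14.1 to 27.6 CPM (log2 ratio 0.97), and *Nlrc5*, the regulator of MHC class I genes, from 62.9 to 32.1 (−0.97), as did *Socs1*, an inhibitor of the JAK kinases, from 83.4 to 43.6 (−0.94). *Cd274*, which encodes PD-L1, had a ratio of 0.55. Of the genes that render a cell able to answer the cytokines that induce *Ifng*, 2 of 4 were past 2-fold lower, *Il18r1* (52.7 to 17.5 CPM, −1.59) and *Il18rap* (66.8 to 20.5 CPM, −1.70), the chains of the interleukin-18 receptor, while the interleukin-12 receptor genes *Il12rb1* and *Il12rb2* had ratios of 0.01 and −0.56.

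Among receptors of the other cytokines in T or NK cells, 1 of 7 was at least 2-fold higher in ConA+Veh than in Naïve and 3 were lower, beside 7.81% and 12.3% of all genes, which is also the background of the other lists in this comparison. *Il2ra*, the inducible chain of the interleukin-2 receptor, went from 34.1 to 96.6 CPM (1.50), *Il10ra* from 42.9 to 15.1 (−1.51), *Il17ra* from 78.5 to 32.7 (−1.26), and *Il10rb* had a ratio of −1.13. Of 14 transcription factors, *Irf4*, which T cell receptor signals induce, was higher (12.7 to 29.8 CPM, 1.23) and 6 were lower, with *Zbtb16* (28.8 to 6.99 CPM, −2.04) and the Th2 factor *Gata3* (73.2 to 21.7 CPM, −1.75) at the end of the range and *Tbx21*, the Th1 factor, at −1.12. *Ahr* itself went from 17.6 to 27.9 CPM (0.67). Of 5 other T cell cytokines, *Il21* was higher (4.88 to 13.6 CPM, 1.48), and *Tnf* (26.8 to 11.1 CPM, −1.27) and *Ltb* (574 to 185 CPM, −1.64) were lower. The medians of these lists were −0.65, −0.44 and 0.34.

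In ConA+TCDD over ConA+Veh, none of the measured genes of the 5 lists was past 2-fold in T or NK cells. Of all 9165 genes, 0.436% were higher and 0.840% lower. The medians were 0.02 for interferon gamma signalling and response, −0.16 for receptors, −0.05 for transcription factors, −0.22 for the inducing group and −0.66 for other cytokines. At the ends of the range stood *Gbp2*, an interferon-induced GTPase gene (26.2 to 45.6 CPM, 0.80), *Foxp3* (0.74), *Lta* (−0.86) and *Ltb*, the lymphotoxin beta gene. *Ltb* went from 185 to 92.3 CPM as rounded, which lay at the edge of 2-fold and was not counted as past it. In ConA+FICZ over ConA+Veh, *Foxp3* was at least 2-fold higher (2.84 to 8.76 CPM, 1.62) and *Rora* at least 2-fold lower (29.9 to 12.8 CPM, −1.23), and no gene of the other 4 lists was past 2-fold. Of all 9195 genes, 0.674% were higher and 1.27% lower. *Foxp3* also defines a class here, of 12 cells in ConA+Veh and 23 in ConA+FICZ. The medians were 0.06, −0.17, −0.23, −0.06 and −0.46, and *Irgm1* (0.89), *Gbp2* (0.86) and *Il21* (13.6 to 26.7 CPM, 0.97) came next below the threshold.

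In B cells, ConA+Veh over Naïve had none of 16 interferon gamma response genes past 2-fold higher (7.37% of all 7840 genes were) and 2 lower (16.8% of genes were), *Ciita*, the regulator of MHC class II genes (103 to 47.8 CPM, −1.11), and *Cd274* (49.5 to 15.5 CPM, −1.68). Of 7 receptor genes *Il2ra* was higher (5.67 to 19.2 CPM, 1.76) and 5 were lower, among them *Il4ra* (132 to 42 CPM, −1.65) and *Il10ra* (142 to 42.9 CPM, −1.73). Medians were 0.09 and −1.29, against −0.25 for all genes. With TCDD, *Cxcl10* (9.05 to 33.4 CPM, 1.88) and *Gbp2* (74.8 to 173 CPM, 1.21) were at least 2-fold higher than in ConA+Veh, where 0.831% of 7343 genes were, and none of the 16 was lower, as 1.47% of genes were. *Il2ra* was the receptor gene past the threshold (19.2 to 40.9 CPM, 1.09). With FICZ, *Gbp2* (74.8 to 231 CPM, 1.63) and *Irgm1* (31 to 73.5 CPM, 1.24) were at least 2-fold higher, where 1.15% of 7982 genes were, and none was lower, as 1.04% of genes were. The medians of the 16 genes were 0.43 with TCDD and 0.25 with FICZ, against 0.04 and 0.03 for all genes.

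In mononuclear phagocytes, ConA+Veh over Naïve had 2 of 16 interferon gamma response genes past 2-fold higher, *Cxcl10* (108 to 361 CPM, 1.74) and *Cd274* (1.26), where 9.93% of 4570 genes were, and 2 lower, *Irf9* (−1.05) and *Ciita* (−1.68), where 7.88% were. Of 7 receptor genes none was higher and 3 were lower, *Il17ra* (−2.12), *Csf2ra* (−1.50), which encodes the chain that binds GM-CSF, and *Il10ra* (−1.47). With TCDD, *Socs1* (1.45), *Gbp2* (247 to 671 CPM, 1.44) and *Cxcl10* (361 to 792 CPM, 1.13) were at least 2-fold higher than in ConA+Veh, where 1.88% of 4686 genes were, and of the receptor genes *Il10rb* (−1.24) and *Il17ra* (−1.50) were lower, where 7.00% of genes were. With FICZ, *Gbp2* (247 to 628 CPM, 1.35) and *Batf2* (1.20) of 18 genes were higher, where 1.75% of 5769 genes were, and none of the 18 or of the 8 receptor genes was lower, as 1.11% of genes were. *Gbp2* was thus above ConA+Veh with both ligands in B cells and in phagocytes, as *Irf1* was in these classes. *Gbp2* was also above ConA+Veh with both ligands in T or NK cells, where *Irf1* with TCDD was −0.13 (−0.30 to 0.05). In phagocytes the medians of the response genes were 0.16 with TCDD and 0.23 with FICZ, against −0.05 and 0.05 for all genes.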

How the data were processed

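Liver mononuclear cells, obtained by enzymatic dissociation and a Percoll gradient, were profiled with the 10x Genomics 5′ assay, 1 library per condition. The deposited values are raw UMI counts per gene and cell, which the authors made with Cell Ranger 3.0.2 on mm10, per the submitters' processing notes. No normalization precedes them.

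The members and gene lists were chosen with earlier results of these data known. Cells were gated by UMIs of at least 2 markers of a class. NK cells held at most 1 of the 4 T cell markers, cells that passed 2 gates were left out as mixed, and no doublet caller was run. Within T cells, *Foxp3*, then *Trdc*, *Zbtb16*, and *Cd8a*, *Cd8b1* and *Cd4* set the subsets. Gated classes are therefore not the authors' clusters. Pairs of libraries shared between 4 and 15 cell barcodes, none of which was removed.

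A level is the sum of a gene's UMIs over all UMIs of the class (CPM). Intervals are exact Poisson for levels, exact binomial for shares, and from the exact binomial distribution for ratios, at 95%, and a count of 0 has a floor of 3 counts. Ratios need 20 UMIs over both libraries, and list genes 50. For shares, cells were thinned to 1000 UMIs with fixed seeds. No test was made between single libraries. Genes named are the 10 members, the 2 highest and the 2 lowest log2 ratios of each list, the 5 genes most like *Ifng* and *Irf1* (at least 200 UMIs), and those said to be chosen after their values were seen. Outside this rule, some further list genes past 2-fold, *Il17f*, *Il22* and the markers *Vsig4* and *Clec4f* were also named. Ratios with their intervals, and the depth after thinning, were tested on simulated data. The gates and the intervals of levels and shares were not. Simulated UMIs were independent of each other, so that check cannot show how intervals hold for genes whose UMIs lie in few cells. A planned promoter motif is not reported here. Alternatives were a quality filter (at least 200 genes and at most 10% mitochondrial UMIs, which removed 150, 464, 296 and 216 cells), gates of 3 markers, mixed cells assigned to the class with the most marker UMIs, a mean over cells, totals without ribosomal protein and mitochondrial genes, no depth correction, thinning to 1000 or 500 UMIs and no thinning. A widened gate, removal of the richest cell, and cells with *Cd52* only were added after seeing the data. Python 3.11.15, numpy 2.4.6, scipy 1.17.1 and matplotlib 3.10.9 were used.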

Additional observations from a re-analysis of the deposited data

How the results depend on the processing

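With 1 library per condition, no value here shows how far mice of a condition differ, and classes of under 40 cells, single rich cells and shallow cells without a gate limit the cytokine values. No paired analysis was possible because each group has 1 library. In T or NK cells the median ratio of all genes for ConA+Veh over Naïve moved from −0.13 to 0.02 with a mean over cells, 0.03 after thinning and 1.24 without depth correction. Alternatives with under 20 UMIs of a gene give no value, a rule added after seeing the data. Of the recomputed values, 542 stayed within the counting interval or within 1.5 times the count, 82 left it, and 16 changed sign. Where the alternative's construction does not show it, the cause was not tested.

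For *Ifng* in T or NK cells, ConA+Veh over Naïve was −2.00 with gates of 3 markers, −1.05 as a mean over cells, −0.34 without depth correction and −1.07 after thinning. ConA+TCDD over ConA+Veh was 0.69 as a mean over cells and 0.73 with the widened gate. ConA+FICZ over ConA+Veh was −0.53, −0.18 and −0.51 as a mean over cells, after thinning and with the widened gate. The share of cells with an *Ifng* UMI gave a log2 ratio of −0.10 for ConA+Veh over Naïve without thinning. The *Ifng* level ratios in T or NK cells kept their sign under each setting run, while the ratio of shares for ConA+TCDD over ConA+Veh, 0.02 after thinning, was −0.06 without thinning. In T cells alone ConA+FICZ over ConA+Veh was 0.01 after thinning.

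For *Irf1* in T or NK cells, ConA+Veh over Naïve was −0.51 as a mean over cells and 0.45 without depth correction, ConA+TCDD over ConA+Veh was 0.18 after thinning, and ConA+FICZ over ConA+Veh was 0.47 without depth correction and 0.50 after thinning. In B cells its ConA+Veh over Naïve ratio was 0.20, 0.94 and 0.28 as a mean over cells, without depth correction and after thinning. For *Ifngr1* in T or NK cells, ConA+Veh over Naïve was −0.52 with the quality filter, −0.50 with 3 markers, and 0.38, 1.04 and 0.40 as a mean over cells, without depth correction and after thinning. Its ConA+TCDD ratio was −0.37 after thinning, and its ConA+FICZ ratio −0.33 with the quality filter and −0.31 without depth correction. In B cells its ConA+TCDD ratio was 0.06 after thinning.

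Without depth correction, the ConA+Veh over Naïve ratios of *Ifngr2*, *Il4* and *Csf2* in T or NK cells were 0.50, 0.24 and 0.28. *Il2* without its richest cells was 1.79 with TCDD and 0.96 with FICZ over ConA+Veh, and 0.47 with the widened gate for ConA+TCDD. *Il10* with FICZ was −0.59 after thinning.

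Of the list genes in T or NK cells, 3 were at least 2-fold higher and 13 lower in ConA+Veh than in Naïve, beside 7.81% and 12.3% of all genes. The lists held 15, 7, 14, 4 and 5 genes with enough UMIs in this comparison. The higher count was 6 as a mean over cells, 20 without depth correction and 5 after thinning, and the lower count was 0 without depth correction. Without depth correction the median ratio of all genes was itself 1.24. Shares of all genes past 2-fold under the alternatives are not given here. For ConA+TCDD, 0 were higher and 0 lower, beside 0.436% and 0.840% of all genes. As a mean over cells 1 was higher and 2 lower, and without depth correction 1 was lower. After thinning 1 was higher and 3 lower, and with the widened gate 1 was lower. For ConA+FICZ, 1 was higher and 1 lower, beside 0.674% and 1.27% of all genes. The higher count was 2 with the quality filter, as a mean over cells and after thinning, and 5 without depth correction. The lower count with FICZ under the alternatives is not given here.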
